A study of Mus musculus with 38 samples.

Results

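The genes described here encode 2 caspases, the proteins around them that start or carry out apoptosis, and 2 proteins with BIR domains: Apaf1, Casp9, Casp6, Endog, Fadd, Birc2 and Birc5. They were the probes whose RefSeq accession belongs to one of these genes, and 7 of 7 genes were found, each with 1 spot, among 6510 gene symbols that could be given to probes of the array. Spleen RNA of male mice exposed once to 10 rad (10 cGy) of X-ray was compared with that of sham-exposed males 3.5 h later on 38 two-colour arrays, 1 irradiated and 1 control mouse to an array. The labels name 6 strains: A/J, B6.C and BalbxJ with 8 arrays each, C3H with 6, and BI6Jx and DBA/2J with 4 each. The study's text calls BI6Jx C57Bl6/J, BalbxJ Balb/C and C3H C3H/HeJ, and the mice carried no transgene or deletion according to the labels. The age was 10 to 14 wk in the labels and 8 to 10 wk in the study's methods. In every strain as many arrays held the irradiated RNA in Cy5 as in Cy3 (19 each in all). By the study's design each pair of mice was hybridised again with the dyes exchanged, although the 4 arrays of BI6Jx and of DBA/2J would hold fewer such pairs than the minimum given for a strain. Which arrays share a pair of mice is not labelled, so the strain was the unit of replication.

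Apoptosis is a programmed death in which proteases of the caspase family cut the proteins of a cell from within. After DNA damage, cytochrome c that leaves the mitochondria joins Apaf1 into the apoptosome, which switches on the initiator Casp9. Ligands of the tumour necrosis factor family reach the caspases by another route, through death receptors and the adaptor Fadd. Effector caspases, with Casp6 among them, then cut the substrates, nucleases such as Endog attack DNA, and BIR proteins such as Birc2 hold the process back. Lymphocytes, which fill the spleen, are among the most radiosensitive cells of the body and die largely by this programme.

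The values are signed scores, 1 for each spot and array. No source used here gives their scale, log base or dye direction, and no fold change was computed. Each array was centred on its own median, and arrays with Cy3 on the irradiated RNA had their sign turned. A turned value above 0 then means more signal after exposure where Cy5 is the numerator of the ratio, and less where Cy3 is. The strain value is the mean of both orientation means, which cancels a bias between the dyes. An array held values for 10941 to 19860 of 21618 probes, and the array medians removed by centring ran from -3.16 to 3.95. Array 97 of BI6Jx and arrays 50 and 53 of B6.C ran against arrays of the same orientation, with an r across probes under -0.3 towards 8, 4 and 3 of them, so their direction is not settled. Any other array had such an r towards at most 2 (the lowest was -0.658, between array 97 and array 88 of A/J). A ratio holds no level, so the presence of spleen cell types could not be checked by level. Markers of B cells had values on 26 to 38 arrays (10 of 14 listed genes were on the array). Of 16 tested genes of the pancreas, which lies beside the spleen, 15 had a negative mean response, and the median of this list on an array ran from -3.74 to 1.85. The r of this median with the 7 genes over arrays lay between -0.216 and 0.197. With irradiated RNA in Cy3 alone it was -0.596 for Birc5, 0.559 for Birc2, -0.525 for Fadd and -0.432 for Casp9, and in Cy5 alone it was farthest from 0 for Casp6 (0.417). The part of these genes in the results was not tested.

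The promoter sequences of 3 genes are shown because their values are the ones most discussed here: Casp6 stood apart in one strain, and Fadd and Birc5 went together across arrays. RefSeq windows of 300 bases on GRCm38.p6, from 250 bases before the start site to 50 bases from it on, are printed in the direction of transcription. The assembly is that of C57BL/6J, and the sequence of the other strains was not analysed here. Capitals mark the GC box GGGCGG, a site of Sp1-type factors, on either strand (CCGCCC on the other).
Casp6, chr3:129901165-129901464, plus strand: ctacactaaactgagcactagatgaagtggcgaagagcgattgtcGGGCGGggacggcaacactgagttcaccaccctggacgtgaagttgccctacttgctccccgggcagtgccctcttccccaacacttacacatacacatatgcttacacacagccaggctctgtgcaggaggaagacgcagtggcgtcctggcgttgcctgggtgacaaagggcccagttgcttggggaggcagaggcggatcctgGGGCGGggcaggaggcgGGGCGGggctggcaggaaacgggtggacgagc
Fadd, chr7:144582392-144582691, minus strand: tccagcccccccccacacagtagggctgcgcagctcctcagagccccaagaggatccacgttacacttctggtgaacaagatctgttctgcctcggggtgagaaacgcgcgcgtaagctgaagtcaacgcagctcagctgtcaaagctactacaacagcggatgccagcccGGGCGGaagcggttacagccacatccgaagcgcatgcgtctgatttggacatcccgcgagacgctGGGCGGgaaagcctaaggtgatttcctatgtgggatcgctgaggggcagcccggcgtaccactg
Birc5, chr11:117848987-117849286, plus strand: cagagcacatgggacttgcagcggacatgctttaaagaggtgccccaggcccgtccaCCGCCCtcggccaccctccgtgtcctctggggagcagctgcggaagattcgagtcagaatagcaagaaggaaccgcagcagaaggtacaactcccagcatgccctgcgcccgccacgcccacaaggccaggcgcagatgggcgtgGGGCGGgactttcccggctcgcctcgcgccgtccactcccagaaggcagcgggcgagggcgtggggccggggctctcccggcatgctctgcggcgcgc

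The Casp6 window held 3 GC boxes and the Fadd and Birc5 windows 2 each. Over all 8 windows of the 7 genes (Birc2 has 2), 7 held a GC box, a motif found in 35.7% of 32851 promoter windows of the same length. The CCAAT box (letters CCAAT, 37.4% of all windows) was in 2 of the 8, in Endog and in the second window of Birc2. The cell cycle element known as CHR (letters TTTGAA, 17.9%) was in 0 of the 8. A p53 half-site, the decamer that p53 dimers bind, was in 2 of the 8 (8.36% of all windows), starting at position -228 from the start site in Birc5 and in the second window of Birc2. None of these matches overlapped a GC box in the 3 printed windows. The GC content was 62% in Casp6, 60.3% in Fadd and 68.7% in Birc5, against a median of 52.7% over all windows.

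Whether the 7 genes responded to the exposure in all strains alike was asked with limma's test of the mean of 6 strain values. With adjustment over all probes, 0 of 14513 probes (0%) and 0 of 7 members passed, while 1191 probes (8.21%) had an unadjusted p under 0.05, and 0 of 7 members did. Casp6 had the most negative mean, -0.529 ± 0.710 (SD, n = 6 strains), and Fadd the most positive, 0.334 ± 0.401 (SD, n = 6 strains). Both means were larger in size than the median over all probes (0.155), but neither exceeded the SD over strains. In spleen RNA, fewer cells of a type and less RNA per cell cannot be told apart.

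**Figure D1:**
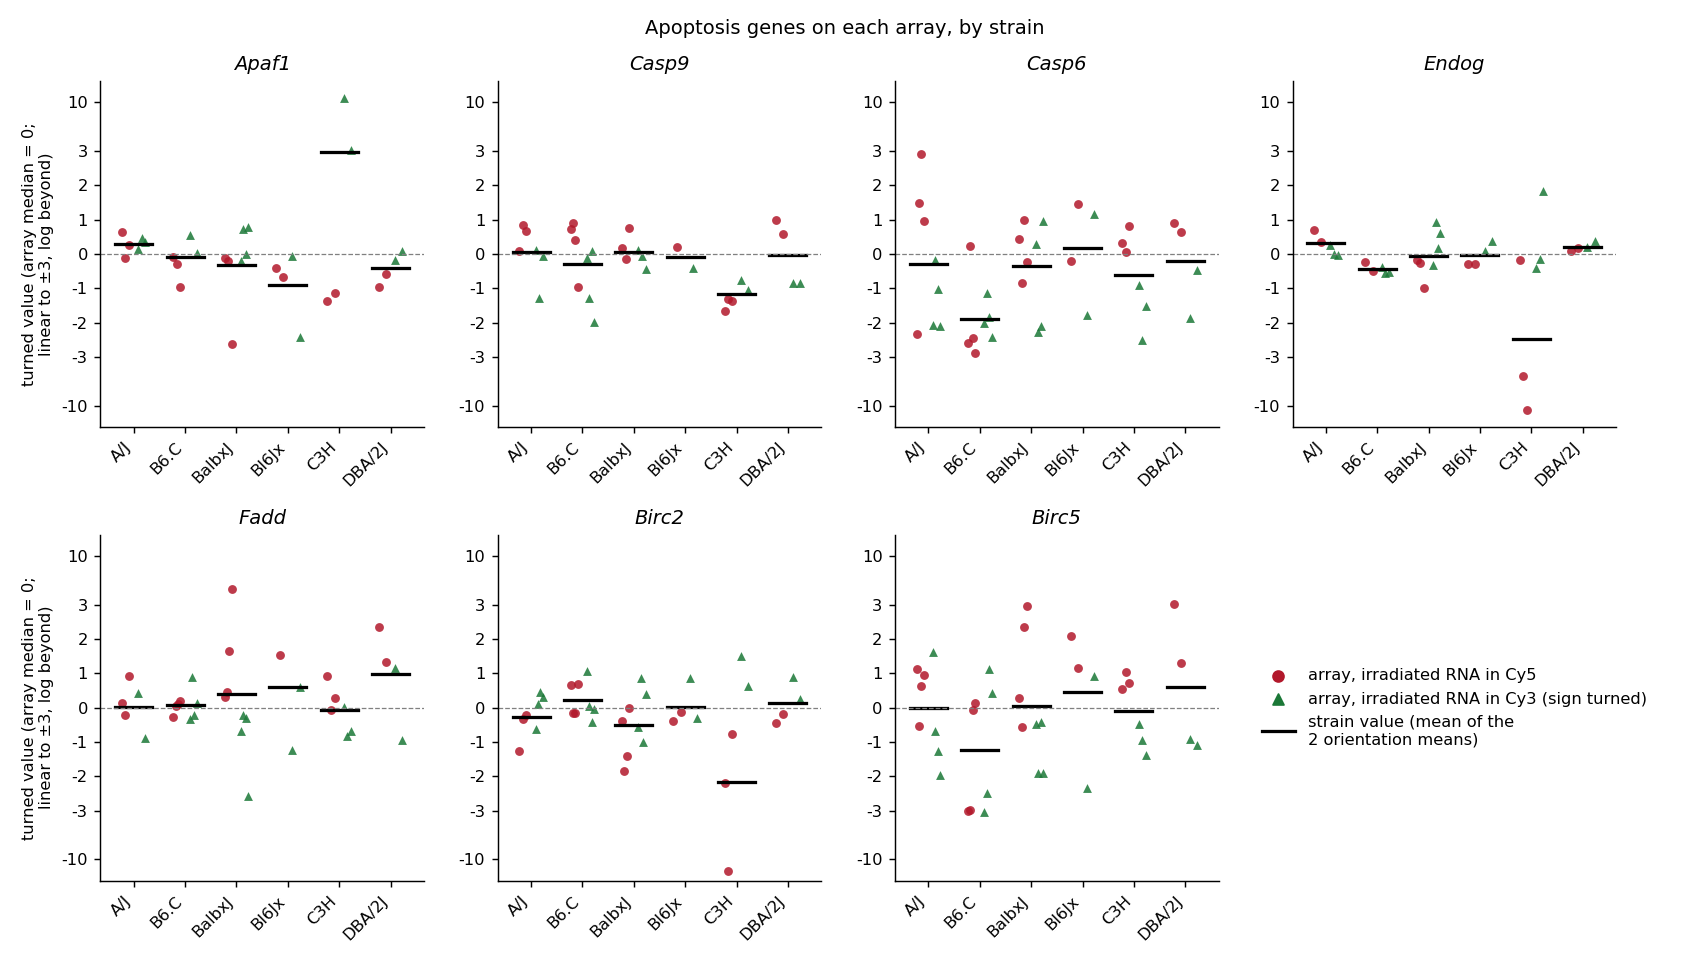
Turned, centred value (score units, linear to ±3 and logarithmic beyond) of each gene on each array, by strain, as red circles where the irradiated RNA carried Cy5 and green triangles where it carried Cy3, with the strain value as a black line. The values of Casp6 in B6.C lay below 0 on 7 of 8 arrays, those of Casp9 in C3H below 0 on 5 of 5, and Apaf1, Endog and Birc2 had single C3H arrays beyond 10 in size.

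Apaf1, the scaffold of the apoptosome, had values on 30 arrays, 13 above 0 and 17 below. Its strain values were 0.294 in A/J, -0.0811 in B6.C, -0.328 in BalbxJ, -0.890 in BI6Jx, 2.96 in C3H and -0.409 in DBA/2J. The values of 5 strains lay within 1 unit of 0, and only that of C3H lay farther out. The mean was 0.258 ± 1.38 (SD, n = 6 strains; limma adjusted p = 0.821). Without C3H the mean was -0.283. In C3H the 4 values were -1.35 (array 25), 11.3 (array 26), 3.07 (array 28) and -1.14 (array 29). The arrays with irradiated RNA in Cy3 were the 2 positive ones, so both orientations opposed each other there. In BI6Jx all 4 arrays were below 0, from -2.40 to -0.0639, with the lowest on array 97.

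Casp9, the initiator caspase that the apoptosome activates, had values on 31 arrays, 14 above 0 and 17 below. The strain values were 0.0669 in A/J, -0.277 in B6.C, 0.0619 in BalbxJ, -0.0957 in BI6Jx, -1.17 in C3H and -0.0290 in DBA/2J, and the mean was -0.241 ± 0.473 (SD, n = 6 strains; limma adjusted p = 0.612). Without C3H the mean was -0.0546. In C3H the 5 values were -1.65, -1.32 and -1.36 with irradiated RNA in Cy5 and -0.743 and -1.05 with it in Cy3. All 5 lay below 0 and both orientations had the same sign. The values of B6.C, the next strain in the order, ran from -1.98 to 0.915. The gap between these neighbours (0.894) was just over the pooled SD of their arrays (0.846). BI6Jx held only 2 values, 0.209 and -0.400.

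Casp6, an effector caspase that cuts nuclear lamins, had values on 38 arrays, 15 above 0 and 23 below. Its strain values were -0.296 in A/J, -1.88 in B6.C, -0.343 in BalbxJ, 0.161 in BI6Jx, -0.617 in C3H and -0.194 in DBA/2J, so 5 of 6 strains lay below 0. The mean of -0.529 had an unadjusted p of 0.0523 (limma adjusted p = 0.567). An exact two-sided sign-flip permutation test over the 6 strains, whose smallest possible p is 0.0312, gave p = 0.0625. Without B6.C the mean was -0.258. In B6.C the lowest of 8 values was -2.88, the median -2.21 and the highest 0.234. Its Cy5 arrays averaged -1.93 and its turned Cy3 arrays -1.84, so both orientations lay at the same distance from 0. In the other 5 strains the Cy5 mean lay above 0 (0.0892 to 0.772) and the turned Cy3 mean below it (-1.63 to -0.305). The gap between B6.C and C3H, its neighbour in the order (1.27), was over the pooled SD of their arrays (1.12). Over the 7 genes, 2 of 35 gaps between neighbouring strains exceeded that SD, this one and that of Casp9 given before. How often such gaps occur over all probes was not counted. Strains farther apart in the order were not compared with that SD.

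Endog, a mitochondrial nuclease that can move to the nucleus in dying cells, had values on 31 arrays, 14 above 0 and 17 below. By strain, the values were 0.306 in A/J, -0.423 in B6.C, -0.0653 in BalbxJ, -0.0247 in BI6Jx, -2.46 in C3H and 0.212 in DBA/2J, and the mean was -0.409 ± 1.04 (SD, n = 6 strains; limma adjusted p = 0.640). Without C3H the mean was 0.000978. Of the 6 values in C3H the lowest was -11.1 (array 29), the median -0.292 and the highest 1.83, and the next lowest was -4.75 (array 27). In B6.C the 5 values were -0.230 and -0.507 with irradiated RNA in Cy5 and -0.365, -0.539 and -0.531 with it in Cy3. In DBA/2J the 4 values were 0.0933, 0.177, 0.195 and 0.383. The arrays of these 2 strains did not overlap, and their SDs (0.134 and 0.122) were the smallest of any gene and strain here. This pair of strains was picked because its arrays lay apart. The share of strain pairs that lie apart in this way, among these genes or all probes, was not counted.

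Fadd, the adaptor that links death receptors to Casp8, had values on 34 arrays, 20 above 0 and 14 below. Its strain values were 0.0252 in A/J, 0.0750 in B6.C, 0.388 in BalbxJ, 0.609 in BI6Jx, -0.0624 in C3H and 0.971 in DBA/2J, so 5 of 6 strains lay above 0. The mean of 0.334 had an unadjusted p of 0.0631 (limma adjusted p = 0.567), and the exact two-sided sign-flip permutation test gave p = 0.0938. Without DBA/2J the mean was 0.207. The 4 values in DBA/2J were 2.35 and 1.33 with irradiated RNA in Cy5 and 1.15 and -0.951 with it in Cy3. In BalbxJ the lowest of 8 values was -2.57, the median 0.0481 and the highest 4.44 (array 36). Both orientations had the same sign in 2 of 6 strains.

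Birc2, a ubiquitin ligase also called cIAP1 that acts at receptors of the tumour necrosis factor family, had values on 36 arrays, 14 above 0 and 22 below. The strain values stood at -0.271 in A/J, 0.214 in B6.C, -0.496 in BalbxJ, 0.0110 in BI6Jx, -2.17 in C3H and 0.135 in DBA/2J, and the mean was -0.429 ± 0.891 (SD, n = 6 strains; limma adjusted p = 0.589). Without C3H the mean was -0.0815. The 5 values in C3H were -2.19 (array 25), 1.49 (array 26), -13.2 (array 27), 0.636 (array 28) and -0.770 (array 29). The most negative of these was also the most extreme of the 238 values of the 7 genes.

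Birc5, known as survivin, holds the chromosomal passenger complex together in dividing cells and is high in proliferating tissue. It had values on 38 arrays, 18 above 0 and 20 below. Its strain values were -0.00804 in A/J, -1.24 in B6.C, 0.0381 in BalbxJ, 0.458 in BI6Jx, -0.0837 in C3H and 0.598 in DBA/2J, and the mean was -0.0401 ± 0.650 (SD, n = 6 strains; limma adjusted p = 0.955). Without B6.C the mean was 0.201. Of the 8 values in B6.C the lowest was -3.08, the median -1.27 and the highest 1.14. Arrays 47 to 50 held -3.05, -3.08, -2.97 and -2.47, whereas arrays 51 to 54 held -0.0650, 1.14, 0.134 and 0.432, so the arrays of this strain lay in separate clusters, each with both orientations and each with 1 array of unsettled direction (50 and 53). Casp6 had no such gap in B6.C: its single positive value was on array 49.

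**Figure D2:**
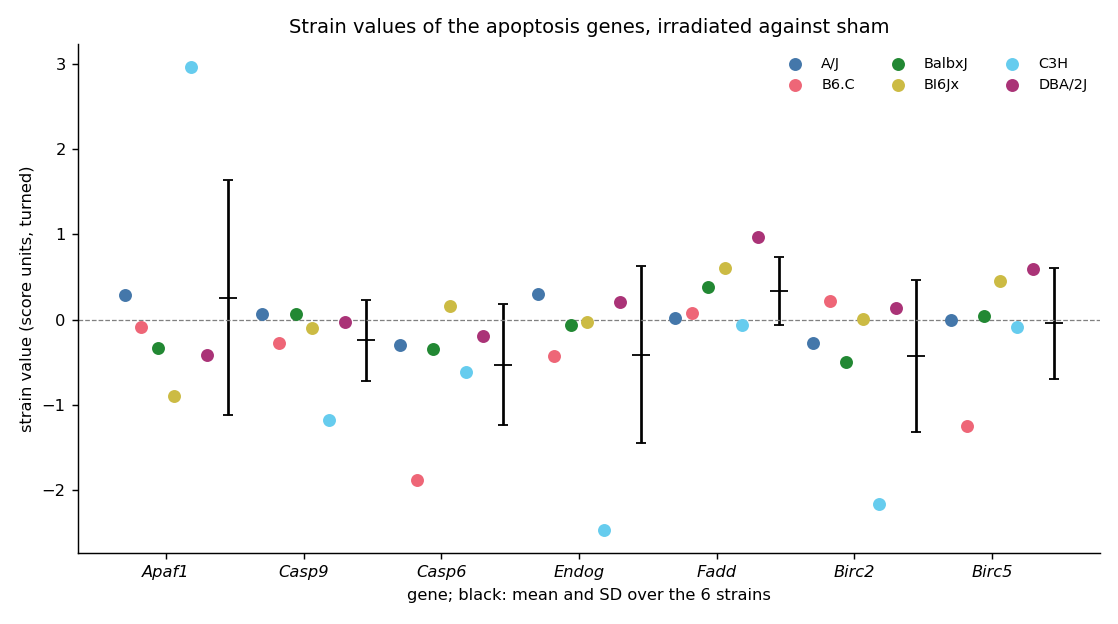
Strain value (score units, turned) of each gene in each of the 6 strains as coloured dots, with the mean and SD over strains in black. C3H held the most extreme strain value of Apaf1, Casp9, Endog and Birc2, B6.C that of Casp6 and Birc5, and DBA/2J that of Fadd. How often each strain held it over all probes was not counted. The arrays of C3H also had the largest median share of values beyond 4 in size (6.34%).

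A dye bias keeps its sign when the dyes are exchanged, so it was read from the mean of both orientations before turning. Birc5 had a bias of 0.857 ± 0.645 (SD, n = 6 strains), Casp6 of 0.648 ± 0.436 and Fadd of 0.628 ± 0.505, each above 0 in 5 of 6 strains. These 3 of 7 genes had an unadjusted p under 0.05 (0.00737, 0.00796 and 0.0146) against 24.2% of all probes, and 0 of 7 passed limma's adjustment, as did 0 of 14513 probes (0%). Among probes with values on all 38 arrays, Casp6 and Birc5 passed it (adjusted p = 0.0224 and 0.0151), as did 625 of 2830 probes. The bias of Casp9 was 0.342, also above 0 in 5 strains. Apaf1 (-0.881), Birc2 (-0.774) and Endog (-0.559) lay below 0, in 5, 5 and 4 strains. With all 6 strains, the bias was larger in size than the mean response for 7 of the 7 genes. Over all probes its median size was 0.285 against 0.155 for the response, and the share of probes with the larger bias was not counted. Without C3H the bias was -0.215 for Apaf1, -0.283 for Birc2 and -0.0943 for Endog. That of Apaf1 was then smaller in size than its mean response without C3H (-0.283).

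**Figure D3:**
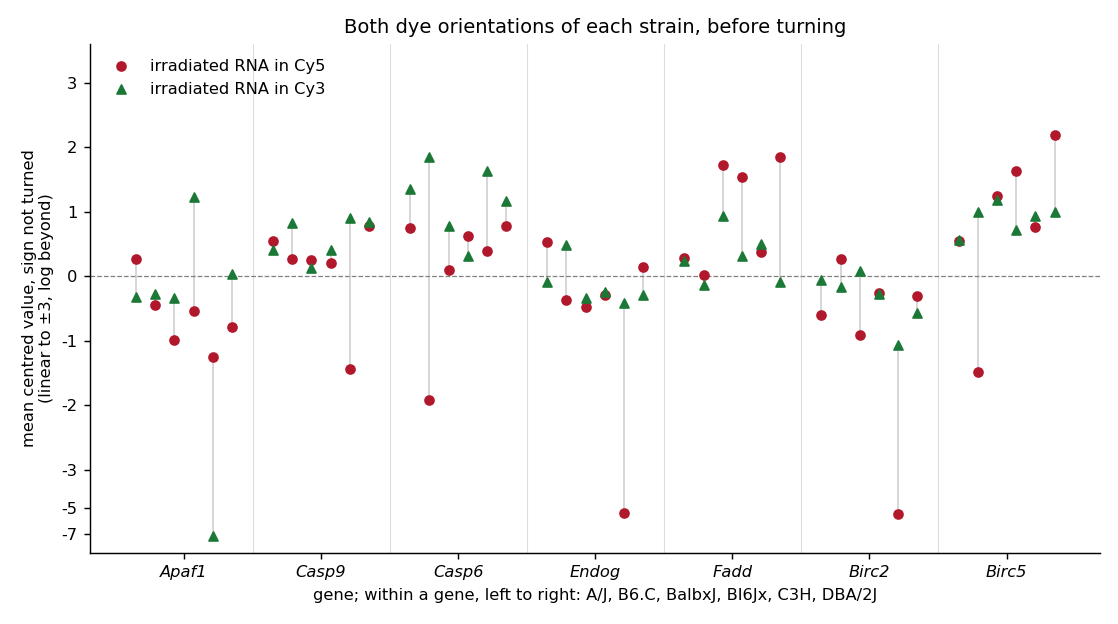
Mean centred value before turning (score units, linear to ±3 and logarithmic beyond) of each gene and strain with the irradiated RNA in Cy5 (red circles) and in Cy3 (green triangles), the strains in the order given on the axis. A response puts both symbols on opposite sides of 0 and a dye bias puts them on one side: Birc5 lay above 0 in both orientations in 5 strains, and Casp6 in B6.C lay at -1.93 and 1.84.

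Whether the strains differed was tested with limma's F test on the 19 Cy5 arrays (those with the irradiated RNA in Cy5). By the dye-swap design a pair of mice enters these once, which the labels do not show. The test called 375 of 10465 probes (3.58%), and 26.1% had an unadjusted p under 0.05. Among the 5 members with enough values 0 passed the adjusted threshold and 1 the unadjusted one. That was Birc5 (unadjusted p = 0.0139, limma adjusted p = 0.115). Its Cy5 means were -1.49 in B6.C, 0.546 in A/J, 0.766 in C3H, 1.25 in BalbxJ, 1.64 in BI6Jx and 2.19 in DBA/2J. Without array 47 of B6.C, 0 of the 5 passed even unadjusted. Casp6 had an unadjusted p of 0.0643, Endog of 0.132, Birc2 of 0.132 and Apaf1 of 0.303, and Casp9 and Fadd, with 1 Cy5 value each in BI6Jx, were not tested. Without array 25 of C3H (-0.176) Endog passed (F = 8.81, limma adjusted p = 0.0461). That left C3H with the values -4.75 and -11.1 (arrays 27 and 29). On the 19 Cy3 arrays 17.3% of 9457 probes had an unadjusted p under 0.05. There Birc5 had an unadjusted p of 0.990 and Apaf1 one of 0.00274 (limma adjusted p = 0.0748), with a Cy3 mean of 7.17 in C3H after turning. The gene that passed was thus not the same one in both orientations.

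Within single strains the arrays were tested against 0 in a limma fit with dye as a covariate. Its p-values are too small because the mice of a pair are on 2 arrays. The fit also used 1 spread per probe for all strains, although the spread differed between them. The SD of all values on an array was 1.32 to 2.35 in C3H and 0.616 to 1.27 in B6.C. In C3H 4 of 7 members had an unadjusted p under 0.05 (12% of probes) and in B6.C 2 of 7 (5.77%). The count was 0 of 7 in A/J (0.42%), BI6Jx (6.39%), BalbxJ (8.29%) and DBA/2J (6.2%). The members in B6.C were Casp6, fitted at -1.88 (adjusted p = 0.0514), and Birc5, at -1.24 (adjusted p = 0.623). Those in C3H were Casp9 at -1.30 (adjusted p = 0.0519), Apaf1 at 2.96 (0.163), Endog at -2.46 (0.150) and Birc2 at -2.68 (0.189). With the adjustment over all probes 0 of these 6 passed (0.186% of probes did in B6.C and 0.510% in C3H), but Casp6 in B6.C and Casp9 in C3H lay close to the threshold. Casp6 passed after division by the median absolute deviation (limma adjusted p = 0.0217) and with the arrays of B6.C alone (0.0481). Casp9 passed with the signs of arrays 97, 50 and 53 turned (0.0490) and with these arrays left out (0.0363). With the arrays of C3H alone it did not pass (limma adjusted p = 0.654). In that setting Apaf1, Endog and Birc2 in C3H had limma unadjusted p-values of 0.110, 0.112 and 0.320. Over all alternatives the adjusted p ran from 0.0217 to 0.9999 for Casp6 and from 0.0363 to 0.975 for Casp9. Without array 25 of C3H, Apaf1 and Endog in that strain passed as well (limma adjusted p = 0.0260 and 0.0403). The values 11.3 (Apaf1, array 26) and -11.1 (Endog, array 29) were still in these fits.

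The C3H results rested on few arrays. Without array 26 Apaf1 was at 0.335 in C3H, without array 29 Endog was at -0.798 and without array 27 Birc2 was at -0.208, none with an unadjusted p under 0.05. Casp9 kept an unadjusted p under 0.05 whichever array was left out, with fitted values from -1.55 to -1.12, and so did Casp6 in B6.C, from -2.11 to -1.65. With the signs of arrays 97, 50 and 53 turned, Casp6 in B6.C was at -0.883 (unadjusted p = 0.0771) and Birc5 at -0.659 (unadjusted p = 0.227). With these arrays left out it was at -1.85 (unadjusted p = 0.000503), and Birc5 in B6.C was at -1.27 (unadjusted p = 0.0350). Without centring, the unadjusted p was 0.204 for Casp6 in B6.C (-0.944), 0.0636 for Casp9 in C3H (-2.01) and 0.724 for Birc5 in B6.C (-0.303). Birc5 in B6.C lost its call without array 47 (-0.867) and without array 49 (-0.879). The C3H arrays also had long tails: 1.88% to 8.16% of all their values lay beyond 4 in size after centring (median 6.34%), against medians of 0.105% to 2.49% in the other strains. The array with the largest share was nevertheless array 36 of BalbxJ (11.1%). Of 5 values of the 7 genes beyond that size, 4 were in C3H, and the part of these tails in the C3H results was not tested.

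Across arrays, the 7 genes did not form a single group. Fadd and Birc5 went together most closely (Spearman's rho 0.676, Pearson's r 0.659 over 34 arrays, r = 0.718 with irradiated RNA in Cy5 and 0.332 in Cy3). Birc2 and Birc5 had a negative rho of -0.652 over 36 arrays (r = -0.294, with -0.123 in Cy5 and -0.640 in Cy3). Apaf1 and Fadd had a rho of -0.601 over 28 arrays (r = -0.388, with -0.510 in Cy5 and -0.238 in Cy3). Apaf1 and Casp9, which act in one complex, had a rho of -0.303 over 24 arrays. Their r was 0.466 in Cy5 and -0.222 in Cy3. Over the 21 pairs rho ran from -0.652 to 0.676. The arrays share mice, and turned values with a dye bias of one sign go together across orientations, so these figures describe the arrays.

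**Figure D4:**
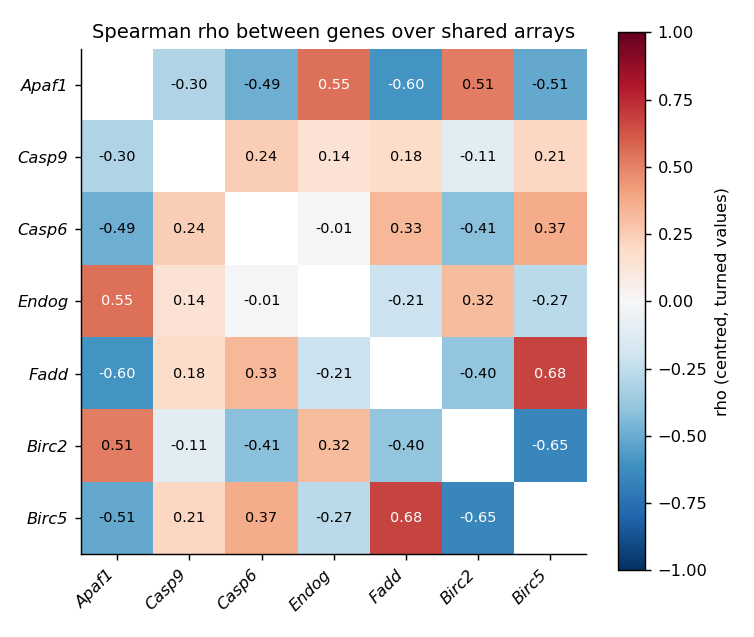
Spearman's rho between each pair of the 7 genes over the arrays on which both have centred, turned values (24 to 38 arrays), in red above 0 and blue below. Fadd and Birc5 stand at 0.68. The pairs among Apaf1, Endog and Birc2 have positive values (0.32 to 0.55), and each of these genes has a negative value towards Birc5. The mean dye bias of Apaf1, Endog and Birc2 was below 0 and that of Birc5 above. Within 1 orientation Pearson's r of those pairs ran from 0.00681 (Apaf1 and Endog, Cy3) to 0.593 (Apaf1 and Birc2, Cy3).

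By Pearson's r over arrays, the named genes most like Birc5 were Snai2 (0.947, 38 arrays), a transcription factor, Lat (0.937, 37 arrays), an adaptor of the T cell receptor and one of the T cell markers, and Podxl (0.930, 20 arrays). Those most like Fadd were Lap3 (0.932, 24 arrays), Trappc2l (0.932, 34 arrays) and Arl8b (0.925, 23 arrays). Casp6 was most like Msi1 (0.858, 36 arrays), an RNA-binding protein, Snai3 (0.834) and Nudt16 (0.799), and Casp9 most like Foxb2 (0.872, 26 arrays), Nsmce1 (0.841) and the kinase Jak3 (0.834). Leaving out arrays 26, 27 and 29 of C3H moved these 12 values little (0.790 to 0.956). For Apaf1 the genes were Ntn3 (0.975), Cacna1c (0.975) and Ptk6 (0.968), for Endog Aldh9a1 (0.987), Rfx1 (0.960) and Aass (0.954), and for Birc2 Bcap31 (0.973), Cep131 (0.961) and Klk4 (0.955). Without the 3 C3H arrays these 9 values ran from -0.0480 for Birc2 and Klk4 to 0.883 for Apaf1 and Cacna1c, and those of Apaf1 with Ntn3 (0.874), Endog with Rfx1 (0.771) and Birc2 with Bcap31 (0.701) were also above 0.7.

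Markers of other cell types moved with some of the genes. The median of the T cell genes on an array ran from -1.17 to 2.36 and had an r of 0.836 with Fadd (34 arrays, r = 0.928 in Cy5 and 0.604 in Cy3) and of 0.636 with Birc5 (38 arrays, 0.600 and 0.475). Without the 2 arrays farthest out, 36 and 95, r was 0.713 for Fadd and 0.575 for Birc5. The NK cell median had an r of 0.690 with Fadd and 0.625 with Birc5, and the B cell median one of 0.586 with Fadd and -0.607 with Apaf1. The macrophage median had an r of 0.562 with Fadd (0.607 in Cy5 and 0.264 in Cy3, Spearman's rho 0.353). With Birc5 its r was 0.510 (0.513 and 0.322). Apaf1 had an r of 0.508 with the plasma cell median, but of 0.0115 in Cy5 and 0.714 in Cy3 (rho 0.208). On some arrays the plasma cell median rested on 1 gene. With the erythroid median Apaf1 had an r of -0.491. Casp6 had an r of 0.245 with the T cell median. Of 7 tested T cell genes 5 had a mean response above 0 and 2 below, with a median of 0.128 and 0 at an unadjusted p under 0.05. The part of these cell types in the values of the genes was not tested.

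**Figure D5:**
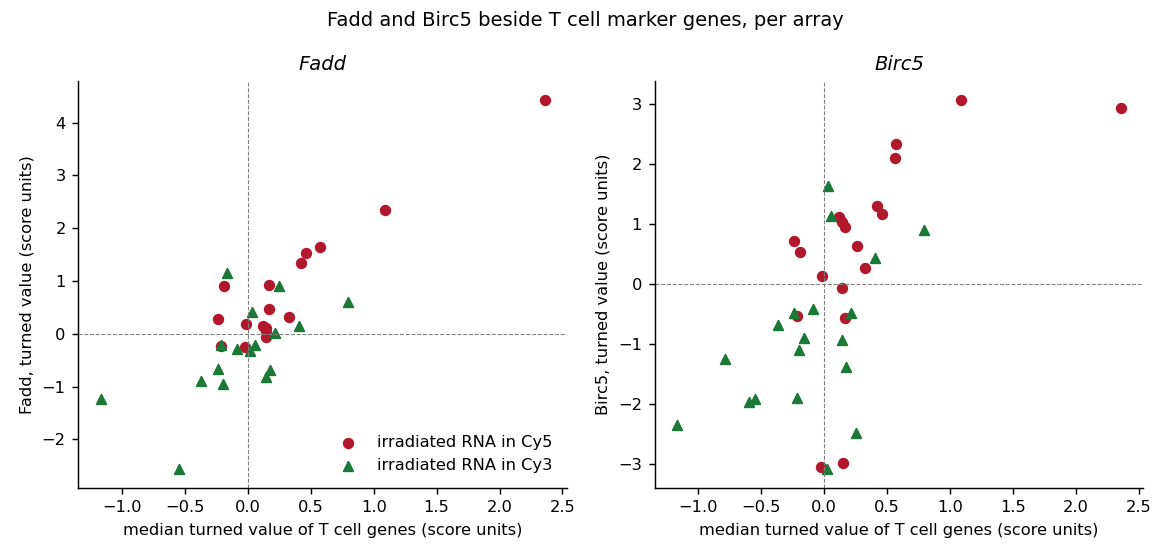
Turned value of Fadd and of Birc5 (vertical axes, score units) against the median turned value of T cell marker genes on the same array (horizontal axes, score units), as red circles for irradiated RNA in Cy5 and green triangles for Cy3. Array 36 of BalbxJ is farthest to the right (2.36) and holds the highest value of Fadd (4.44).

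Around the apoptosome, 7 genes of the mitochondrial pathway were tested, 3 with a mean response above 0 and 4 below (median -0.0314, against -0.00675 over all probes), and 0 had an unadjusted p under 0.05. Cycs, cytochrome c itself, had a mean of 0.196 (SE 0.137) and Septin4, which binds BIR proteins, one of 0.885 (SE 0.564). The family of Bcl2, which guards the outer membrane of the mitochondria, had 12 tested genes, 6 on each side of 0 (median 0.0222), and 3 passed the unadjusted threshold, which 8.21% of all probes did. These were Bid (-0.306, below 0 in 6 of 6 strains, where 4.27% of all probes had one sign), the BH3 protein that Casp8 cuts, the pore former Bak1 (-0.374, below 0 in 5) and the survival protein Bcl2a1a (0.555, above 0 in 5). Each had a limma adjusted p of 0.567.

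Of the other caspases 8 were on the array but only 3 had enough values, 2 above 0 and 1 below (median 0.0720) with 0 passing unadjusted. Casp2 had a mean of 0.0993 (SE 0.116), and Casp8ap2, a partner of Casp8, one of -0.355 (SE 0.247). Proteins that caspases cut were tested in 12 cases, 8 above 0 and 4 below (median 0.241), and 3 passed unadjusted (8.21% of all probes did). Bid, already counted in the Bcl2 family, was among them. Besides Bid these were Satb1 (0.755, SE 0.291), a chromatin organizer of T cells known as a substrate of Casp6, and the kinase Prkcd (0.429, SE 0.189), both above 0 in 5 of 6 strains. The nucleases beside Endog had 8 tested genes, 6 above 0 (median 0.151), and 0 passed, with Dffb, the caspase-activated DNase, at 0.225 (SE 0.138) and Dnase2a at 0.30 (SE 0.193).

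At the death receptors, where Fadd acts, 6 genes were tested, 2 above 0 and 4 below (median -0.0353). Tnfrsf25, a death receptor of T cells, passed unadjusted (8.21% of all probes did) at -0.606 (SE 0.213), below 0 in 5 of 6 strains. In the TRAF and NF-kB pathway around Birc2, 7 of 12 tested genes lay above 0 (median 0.0508), and 2 passed unadjusted, again against 8.21% of all probes. They were the adaptors Traf1 (0.449, SE 0.164), an NF-kB target, and Traf3 (0.413, SE 0.155), both above 0 in 6 of 6 strains, a pattern of one sign that 4.27% of all probes had. The other BIR proteins and their antagonists had 6 tested genes, 4 above 0 (median 0.0150) and 0 passing, with the protease Htra2 at -0.238 and Birc6 at 0.164. In each of these lists 0 genes passed limma's adjusted threshold.

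The genes that p53 raises after DNA damage, to which Apaf1 and Casp6 are often counted, had 7 tested members besides those 2, 1 above 0 and 6 below (median -0.167), and 0 passed unadjusted. Dcxr had a mean of -0.169 (SE 0.114) and Trp53inp1 one of -0.432 (SE 0.312), of which C3H held the most extreme strain value (-2.38). Partners of Birc5 and other genes of dividing cells had 12 tested genes, 4 above 0 and 8 below (median -0.0537), and 0 passed. Cks2, which binds cyclin-dependent kinases, stood at -0.398 (SE 0.177) and Cdc25c, the phosphatase that opens mitosis, at 0.429 (SE 0.212). Among the lists of cell types, B cells, T cells, NK cells, macrophages, erythroid cells and plasma cells had 0 genes with an unadjusted p under 0.05. Neutrophils had 1 of 10, above 0, in a list with 5 genes above 0 and 5 below (median 0.0184). The pancreas had 5 of 16, all below 0. Over all probes 8.21% had such a p.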

How the data were processed

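Members and gene lists were chosen with earlier results of these data known. Per the study's methods, the authors removed spots of poor quality or low expression, subtracted local background and used Lowess within arrays. They deposited 1 signed value per spot and array, treated as a score because its scale is not stated, so that whether it follows Lowess is unknown. The planned tests foresaw log ratios, and scores were used. Control spots (864 blank, 275 buffer, 96 Alien) were left out and spots of a probe averaged. Probes were named by accession through RefSeq genes of GRCm38.p6 (6516 of 21618 named by 1 symbol).

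Arrays were centred, and sign was turned for irradiated RNA in Cy3. Tests covered the 14513 probes measured on at least 19 arrays and, in each strain, in both orientations, with limma 3.58.1 in R 4.3.3, with Benjamini-Hochberg adjustment and a threshold of 0.05. The F test needed 2 arrays in each strain. Named genes are the 7 members, list genes with an unadjusted p under 0.05 over strains (otherwise the 2 with the smallest p), and the 3 genes with the highest r to each member over at least 19 arrays. Cell type lists are given by counts, medians and ranges. Scripts were checked on simulated data. Other scalings, filters, units, weights and orientations were tried, and arrays and strains left out. The omission of 3 C3H arrays was added after the values were seen. The number of arrays limits the precision.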

Additional observations from a re-analysis of the deposited data

Results flagged for a closer look

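Of 40 groups of 4 to 8 arrays of one gene and strain, 3 held an array farther from its group than Dixon's critical value allows, where chance gives about 1 in 20. Array 35 of BalbxJ held -2.62 for Apaf1, with the next value at -0.216. Array 50 of B6.C, whose direction is not settled, held 0.899 for Fadd, with the next at 0.186. Array 27 of C3H held -13.2 for Birc2, with the next at -2.19. For Endog the mean over arrays was 0.646 higher in DBA/2J, where all 4 arrays lay above 0, than in B6.C, where all 5 lay below. This difference between a pair of strains was not tested. The pair was picked from the values, and the share of strain pairs that lie apart in this way was not counted. The F test over 6 strains gave Endog a limma adjusted p of 0.309. Without array 25 of C3H it was 0.0461, with C3H left at -4.75 and -11.1. Neither p-value is about DBA/2J and B6.C alone.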

How the results depend on the processing

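Limits come first from the values themselves, whose scale and dye direction are unknown, and from 4 to 8 arrays a strain that share mice in a way the labels do not give. No paired analysis was possible because the labels give no replicate number or pair to an array. The mean of no member over strains passed limma's adjusted threshold under any alternative.

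As deposited, without centring, 31 probes were called over strains, 0 members had an unadjusted p under 0.05 for dye bias, 10198 probes and 5 members were called as differing between strains, 3 calls were made within strains, and the Birc5 mean was 0.0726. Members with an unadjusted p under 0.05 over strains numbered 1 after division by the median absolute deviation, with arrays 97, 50 and 53 turned or left out, with values on all 38 arrays, with arrays as units and with strains weighted by arrays (Casp6 each time), and 1 without arrays 26, 27 and 29 of C3H (Fadd). They numbered 2 on Cy5 arrays alone (Apaf1 and Fadd), where Apaf1 was at -0.623, Casp9 at 0.102, Casp6 at 0.119 and Birc5 at 0.817. On turned Cy3 arrays alone they numbered 3 (Casp9, Casp6 and Birc5), and Endog was at 0.150, Fadd at -0.293 and Birc2 at 0.346. With values on all 38 arrays 625 probes were called for dye bias. Probes called as differing between strains numbered 1153 after that division, 608 without the 3 C3H arrays, 224 on Cy3 arrays, 28 on all arrays and 78 with values on all 19. Within strains the calls numbered 3 without the 3 C3H arrays, where Endog in C3H was at 0.365, and 3 with the arrays of each strain alone. Without those arrays the mean of Apaf1 was -0.0928 and that of Endog 0.0453.

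With 1 array or strain left out, calls over strains stayed at 0, members at an unadjusted p under 0.05 numbered 0 to 2, probes called for dye bias 0 to 1881 (1795 without B6.C, 1881 without C3H) with 2 to 4 members, probes differing between strains 74 (without array 11) to 668 (without array 83) with 0 to 2 members, and calls within strains 5 to 7. The means ran from -0.283 to 0.599 for Apaf1, from -0.625 to 0.000978 for Endog and from -0.176 to 0.201 for Birc5. The cause was not tested for any of these changes.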
